A study of Mus musculus with 4 samples.

Results

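Mitochondria import nearly all of their proteins and exchange their metabolites through 2 sets of membrane proteins, and the transcripts of both sets were measured here after pull-down with an antibody to CPEB2. The genes were taken by name from the array annotation. They are every gene called Timm or Tomm with a number, which encode the translocases of the inner and outer membrane, and every gene called Slc25a with a number, which encode the carrier family. The rule gave 71 of the 24185 annotated genes, with 101 of 33256 annotated probes, namely 14 Timm, 10 Tomm and 47 Slc25a genes.

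RNA immunoprecipitation (RIP) recovers the RNA held by a protein, and a non-specific IgG gives the background of the method. Corticohippocampal lysate of 8-week-old male C57BL/6 mice was divided between CPEB2 IgG and control IgG and kept for 3 h with the antibody on beads, and 0.2 µg of the recovered RNA was labelled for 1 one-color array of 60-base probes. There were 2 such experiments and thus 2 arrays per antibody, called CPEB2 IgG 1 and 2 and control IgG 1 and 2. The labels name no treatment or transgene, and by label the groups differ in the antibody alone. One text field of the CPEB2 samples names CPEB3 IgG, whereas their titles and the protocol name CPEB2.

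Proteins made in the cytosol enter mitochondria through the TOM complex of the outer membrane, which has receptors, a channel and small subunits around the channel. Small TIM chaperones then escort hydrophobic proteins, the carriers among them, to the TIM22 complex for insertion into the inner membrane, and the TIM23 complex passes proteins with a targeting presequence into the matrix. The carriers themselves move nucleotides, phosphate, amino acids, carboxylates and cofactors across the inner membrane. CPEB proteins bind the cytoplasmic polyadenylation element (CPE), a short U-rich motif in the 3′ untranslated region, and control translation of the messages that carry it. Neurons depend on mitochondria far from the cell body, in axons and at synapses.

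No spot was saturated, and the share well above background was 68.4% to 74.1% per array. Neuron markers such as Snap25 and Map2 were above background on all 4 arrays, as were the astrocyte, oligodendrocyte and microglia markers. Of 4 markers of liver and heart muscle, Alb and Myl7 were not above background on at least 2 arrays, while Myh6 had scaled signals from 38.2 to 79.1 and the liver gene Apoa2 had scaled signals from 2869 to 4449. With CPEB2 IgG the neuron marker Map2 (log2 fold change 2.43) and the astrocyte marker Slc1a3 (3.44) were higher, and Tubb3 (-1.50), Aldh1l1 (-3.77), Gfap (-0.90), Aif1 (-2.64) and Csf1r (-1.35) were lower, while none of the 3 oligodendrocyte markers was called. The lysate mixes these cell types, so no signal can be assigned to one of them, and within an experiment both antibodies received the same lysate. All arrays sat on 1 slide, with neighboring positions for the arrays of an antibody, and the effects of position and antibody cannot be told apart.

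A gene was represented by its brightest probe among those well above background on at least 2 of the 4 arrays. Signals are given as scaled signals, the scanner's intensity after each array was brought to a common 75th percentile, and they are not compared between genes. Changes are log2 fold changes of CPEB2 IgG over control IgG, the mean of 2 experiments, with the standard error (SE) of the limma fit over the 4 arrays, and a gene was called at an adjusted p-value under 0.05 (limma with the experiment as a block, Benjamini-Hochberg over 19698 genes). Of the 71 genes, 65 were tested, 61 of them above background on all 4 arrays. The carriers Slc25a2, Slc25a31, Slc25a43, Slc25a48 and Slc25a54 were above background on at most 1 array, and Slc25a35 lost its spot on control IgG 2 to a quality mark and was not tested.

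With CPEB2 IgG, 18 of the 65 genes were higher, 20 were lower and 27 were not called. Across all genes tested, 21.2% were higher and 20.4% were lower, against 27.7% and 30.8% here. The median log2 fold change was -0.20 for the 65 genes and -0.11 for the whole array, which became 0.11 after median centring, with 5212 genes higher and 3301 lower. The genes named Tomm and those named Timm had medians of opposite sign. Of the 10 Tomm genes, 5 were higher and 2 lower, with a median of 1.00, and of the 14 Timm genes none was higher and 7 were lower, with a median of -1.07. The 41 carriers tested fell on both sides, with 13 higher and 11 lower and a median of -0.13, close to that of the whole array. After median centring the calls were 8 higher and 7 lower for the import subunits and 14 higher and 9 lower for the carriers.

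The CPEB2 IgG and control IgG arrays did not overlap for 57 of the 65 genes, and for 71.9% of all genes tested. The study set thresholds of a 1.5-fold enrichment and a raw signal of 1000, beside a CPE in the 3′ untranslated region, which was not used here. The first pair was applied here to the mean fold change of any probe and to its raw signal on either CPEB2 IgG array. They were passed by 13.9% of all annotated genes and by 16 of the 71 genes, which were 7 Tomm genes, 9 carriers and no Timm gene.

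Of the 6 TOM receptors and channel genes, 3 were higher with CPEB2 IgG. These were Tomm70a, Tomm22 and Tomm40, while Tomm40l was lower, and Tomm20 and Tomm20l were not called. Tomm70a encodes the receptor that takes over carrier precursors with their cytosolic chaperones (probe for NM_138599, mm9 chr16:57154282-57154341, plus strand). Its scaled signal was 12410 on CPEB2 IgG 1 and 24109 on CPEB2 IgG 2, against 4675 and 5677 with control IgG. Both CPEB2 IgG arrays lay above both control arrays, and the 2 CPEB2 IgG arrays differed more from each other than the control arrays did. The log2 fold change was 1.75 ± 0.28 (SE), a 3.36-fold difference (adjusted p = 0.0104, limma). When dim probes were kept in the fit, the adjusted p was 0.0543.

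Tomm22 encodes a central receptor that also holds the complex together (NM_172609, mm9 chr15:79503096-79503155, plus strand). Scaled signals were 17510 and 19695 with CPEB2 IgG against 6779 and 6643 with control IgG. The replicates lay close together and the groups far apart, with a log2 fold change of 1.47 ± 0.23 (SE) and an adjusted p of 0.0105 (limma). Tomm40 encodes the channel (NM_001109748, mm9 chr7:20286707-20286766, minus strand). Its scaled signal was 21790 and 27014 with CPEB2 IgG against 9296 and 9917 with control IgG, a log2 fold change of 1.34 ± 0.23 (SE; adjusted p = 0.0133, limma). This call rests on 1 of 2 probes. The other probe, earlier in the transcript, went the opposite way (-1.50), and the mean of both probes was -0.08. Tomm20, a receptor for presequences, had scaled signals of 9657 and 12402 against 7031 and 6770 and was not called (log2 fold change 0.67 ± 0.25 SE, adjusted p = 0.0926, limma), although the groups did not overlap. Its relative Tomm20l overlapped between the antibodies (-0.03), by a probe to which the annotation gives no genome position. The second Tomm20l probe was above background on 0 of 4 arrays. Tomm40l, a relative of the channel, had scaled signals of 412 and 390 against 786 and 754, so that it lay lower on both CPEB2 IgG arrays (log2 fold change -0.94, adjusted p = 0.0310, limma).

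The 3 small TOM subunits, which bind the channel and stabilise the complex, went different ways. Tomm5 had the largest rise of the Tomm genes (NM_001134646, mm9 chr4:45118100-45118159, minus strand). Its scaled signal was 29771 and 28025 with CPEB2 IgG against 7237 and 6874 with control IgG, a 4.10-fold difference (log2 fold change 2.03 ± 0.23 SE, adjusted p = 0.00596, limma). A second probe of Tomm5 gave 2.09. Tomm6 went the other way, with scaled signals of 14140 and 14668 against 27762 and 27855, and the groups were again well apart (log2 fold change -0.95 ± 0.23 SE, adjusted p = 0.0304, limma). A second, much dimmer probe of Tomm6 gave -0.25, and the mean of both gave -0.60 (adjusted p = 0.0968, limma). Tomm7 lay higher on both CPEB2 IgG arrays, at 35170 and 38040 against 24620 and 21966, but was not called (0.65 ± 0.24 SE, adjusted p = 0.0873, limma). A second, much dimmer probe of Tomm7 gave 0.04, with 0.13 in experiment 1 and -0.06 in experiment 2. Tomm34, a cytosolic co-chaperone of import named with the family, was higher (NM_025996, mm9 chr2:163879322-163879381, minus strand). It read 32655 and 42842 in scaled signal with CPEB2 IgG against 11791 and 11796 with control IgG, a log2 fold change of 1.67 ± 0.25 (SE; adjusted p = 0.00890, limma).

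Besides that of Tomm40, whose sign rests on the choice of probe, the calls of Tomm6 and Tomm40l depended on the settings. After median centring their log2 fold changes were -0.72 and -0.71 (adjusted p = 0.0861 and 0.0882, limma), and without control IgG 1 they were -0.95 and -0.91 (adjusted p = 0.103 and 0.115), with similar values without control IgG 2.

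**Figure D1:**
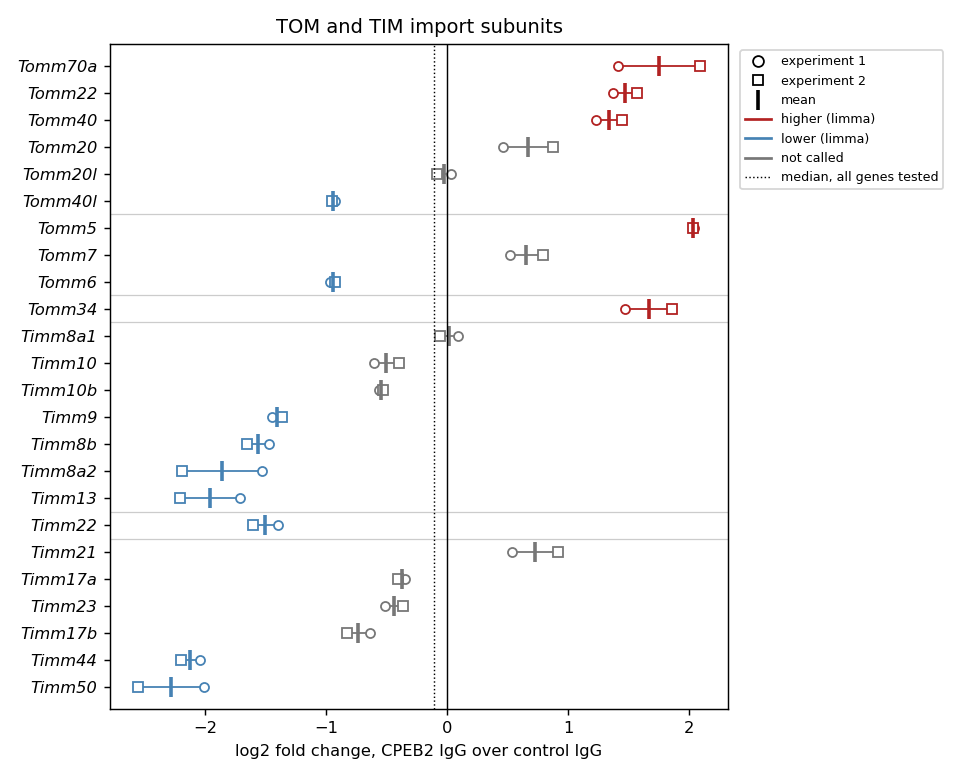
Log2 fold change of CPEB2 IgG over control IgG for the 24 import subunits, grouped by role, with a circle for experiment 1, a square for experiment 2 and a bar for their mean. Colors give the limma call, and the dotted line is the median of all genes tested (-0.11); the 5 higher calls are Tomm genes and 7 of the 9 lower calls are Timm genes.

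The small TIM chaperones were lower or not called. Of the 7, 4 were lower with CPEB2 IgG, Timm8a2, Timm8b, Timm9 and Timm13, and Timm8a1, Timm10 and Timm10b were not called. Timm13 and its partners of the Timm8 type form 1 chaperone complex, and Timm9 and Timm10 form the other. Timm13 had the largest fall of the small TIMs (NM_013895, mm9 chr10:80362839-80362898). On the arrays it read 6526 and 4212 with CPEB2 IgG against 21413 and 19550 with control IgG, so both control arrays lay far above (log2 fold change -1.96 ± 0.26 SE, 3.90-fold lower, adjusted p = 0.00713, limma). Timm8b had scaled signals of 13316 and 10238 against 37052 and 32343 (NM_013897, mm9 chr9:50413114-50413173), with no overlap and a log2 fold change of -1.57 ± 0.23 (SE; adjusted p = 0.00900, limma).

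Timm8a2, a relative of Timm8a1, was dim. Its scaled signal was 34.4 and 11.4 with CPEB2 IgG against 99.6 and 52.5 with control IgG, and it was above background on 1 of 2 CPEB2 IgG arrays. Its log2 fold change of -1.86 (adjusted p = 0.00891, limma) depended on the fit, with an adjusted p of 0.0689 without the block, -1.07 and 0.200 without CPEB2 IgG 2, and -1.40 and 0.141 without control IgG 1. Timm9 had scaled signals of 359 and 392 against 980 and 1012 (log2 fold change -1.41 ± 0.23 SE, adjusted p = 0.0111, limma), with the groups well apart. A second probe of Timm9 gave 0.17, and the mean of both gave -0.62 (adjusted p = 0.0896, limma).

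The 3 small TIMs that were not called had smaller differences. Timm10 had a log2 fold change of -0.51 and Timm10b of -0.55 (adjusted p = 0.149 and 0.120, limma), and in both the CPEB2 IgG arrays lay below the control arrays. Timm8a1 overlapped between the antibodies at 2742 and 2278 against 2578 and 2376 (0.01). With the 3 small TOM subunits, the 7 small TIMs make up 10 short import subunits, of which 1 was higher and 5 were lower.

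Timm22, the channel that inserts carriers into the inner membrane, was lower (NM_019818, mm9 chr11:76227851-76227910). Scaled signals of Timm22 were 1409 and 1183 with CPEB2 IgG against 3720 and 3612 with control IgG, with the replicates close together (log2 fold change -1.51 ± 0.23 SE, adjusted p = 0.00990, limma). Timm29, a further subunit of this complex, is on the array under an older name that the rule did not take and was not included.

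In the TIM23 complex, 2 of 6 subunits were lower and none was higher. Timm44, which tethers the import motor to the channel, had scaled signals of 865 and 756 with CPEB2 IgG against 3575 and 3488 with control IgG (NM_011592, mm9 chr8:4259739-4259798). The groups were 4.37-fold apart (log2 fold change -2.13 ± 0.23 SE, adjusted p = 0.00573, limma). Timm50, the receptor that takes presequences from the TOM complex, had scaled signals of 200 and 162 against 807 and 954 (NM_025616, mm9 chr7:29091465-29091522), the largest fall of all import subunits (log2 fold change -2.29 ± 0.26 SE, adjusted p = 0.00601, limma). A second probe of Timm50 gave -1.99. The channel subunits Timm17a (-0.38), Timm17b (-0.73) and Timm23 (-0.44) were not called (adjusted p = 0.247, 0.0623 and 0.192, limma). By their tested probes, all of them lay lower on both CPEB2 IgG arrays. A second probe of Timm17a overlapped between the antibodies (0.004), at 8162 and 9040 against 8344 and 8792. Timm17b was called lower in 8 of the alternative settings. Timm21, which links the complex to the outer membrane and the respiratory chain, was not called and had the only Timm log2 fold change above 0 in both experiments (0.73, adjusted p = 0.0726, limma), and it was called higher in 6 of the alternative settings.

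**Figure D2:**
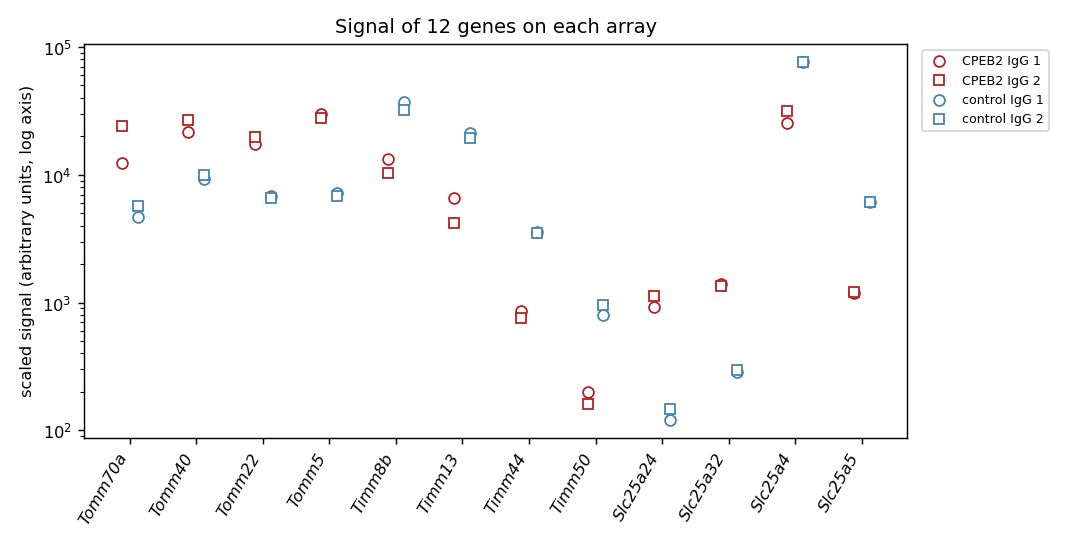
Scaled signal on a log axis for 12 genes on each array, with CPEB2 IgG in red, control IgG in blue, circles for experiment 1 and squares for experiment 2. Tomm70a, Tomm40, Tomm22, Tomm5, Slc25a24 and Slc25a32 lay higher on both CPEB2 IgG arrays, and Timm8b, Timm13, Timm44, Timm50, Slc25a4 and Slc25a5 on both control IgG arrays.

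The difference between the median of the Tomm genes and that of the Timm genes was 1.89 in experiment 1 and 2.26 in experiment 2, or 2.08 ± 0.26 (SD, n = 2). Short import subunits were set against the carriers, which many of them help to import. The median log2 fold change was -0.75 for the 10 short import subunits, against -0.13 for the 41 carriers. The difference of the medians was -0.75 in experiment 1 and -0.74 in experiment 2, or -0.74 ± 0.01 (SD, n = 2). The 14 other import subunits differed from the carriers by -0.18 ± 0.08 (SD, n = 2). The value for short subunits mixed unlike lists, since it was -1.39 for the small TIMs alone, and the small TOM subunit with the largest change rose. The smallest p-value of a two-sided exact permutation test with 2 arrays per antibody is 0.333, and the differences between lists were not tested. They are given as descriptions of 4 arrays, and the lists also differ in where their probes sit, as given below.

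The carriers ranged from -2.35 to 2.93 in log2 fold change, wider than the import subunits. The ADP/ATP and phosphate carriers, which supply the ATP synthase with its substrates and send ATP to the cytosol, were lower in all 3 genes tested. Slc25a4, the main ADP/ATP carrier of muscle and brain, had scaled signals of 25392 and 31846 with CPEB2 IgG against 76478 and 76265 with control IgG (NM_007450, mm9 chr8:47292828-47292887). The groups were well apart (log2 fold change -1.43 ± 0.24 SE, adjusted p = 0.0122, limma). Slc25a5, the ADP/ATP carrier of most other tissues, had scaled signals of 1191 and 1206 against 6120 and 6137 (NM_007451, mm9 chrX:34338580-34338639), the largest fall of all 65 genes (log2 fold change -2.35 ± 0.23 SE, 5.11-fold lower, adjusted p = 0.00543, limma). The phosphate carrier Slc25a3 had scaled signals of 3667 and 6140 against 8337 and 9690 (log2 fold change -0.92, adjusted p = 0.0459, limma), and its adjusted p was 0.0723 without the block, 0.113 after median centring and from 0.126 to 0.210 without CPEB2 IgG 1 or either control array. ADP/ATP carriers have near-identical copies in the genome, so their probes may share signal. A second Slc25a5 probe, which the annotation places on chromosome 14 rather than X, gave -1.44.

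The carriers of ATP-Mg, coenzyme A and peroxisomal nucleotides went the other way, with 4 of 7 higher and none lower. Slc25a24, a calcium-regulated ATP-Mg/phosphate carrier, had scaled signals of 918 and 1124 with CPEB2 IgG against 120 and 147 with control IgG (NM_172685, mm9 chr3:108971266-108971325). This 7.64-fold difference was the largest rise of all 65 genes (log2 fold change 2.93 ± 0.23 SE, adjusted p = 0.00543, limma). Its relative Slc25a23 had scaled signals of 1966 and 1615 against 624 and 580 (log2 fold change 1.57, adjusted p = 0.00900, limma). The other relatives, Slc25a25 (-0.28) and Slc25a41 (-0.39), were not called. The coenzyme A carriers Slc25a16 (2.12) and Slc25a42 (1.36) were both higher (adjusted p = 0.00766 and 0.0121, limma), with Slc25a16 at 857 and 1580 against 257 and 280 and Slc25a42 at 4889 and 5330 against 1968 and 2002. Slc25a17, the peroxisomal carrier, was not called (0.30).

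The aspartate/glutamate carriers of the malate-aspartate shuttle were split. Slc25a12, the form of brain and muscle, was lower, at 2373 and 2755 with CPEB2 IgG against 5730 and 6518 with control IgG (log2 fold change -1.26 ± 0.23 SE, adjusted p = 0.0146, limma). Slc25a13, the form best known from liver, was higher, at 386 and 360 against 169 and 142 (1.27 ± 0.23 SE, adjusted p = 0.0147, limma). The 2 paralogs thus lay on opposite sides, both without overlap, and both calls were lost without control IgG 2 (-1.16 and 1.14, adjusted p = 0.0589 and 0.0599, limma). The glutamate carrier Slc25a18, found mainly in astrocytes, was lower (-1.81, adjusted p = 0.00767, limma), at 752 and 471 against 2292 and 1906. The other glutamate carrier, Slc25a22, overlapped between the antibodies, with -0.54 in experiment 1 and 0.26 in experiment 2. The astrocyte markers moved in both directions in the same arrays (Slc1a3 3.44 and Aldh1l1 -3.77), and their part in the values of Slc25a18 was not tested.

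Of the other amino acid carriers, Slc25a29, a carrier of basic amino acids, was higher, at 2788 and 2025 against 664 and 750 (log2 fold change 1.75 ± 0.27 SE, adjusted p = 0.00991, limma, and 0.0523 with dim probes kept). The ornithine carrier Slc25a15 was higher as well (1.72, adjusted p = 0.0249, limma) but dim, at 49.1 and 82.1 against 23.7 and 15.8, and its call was lost without CPEB2 IgG 2 (1.34, adjusted p = 0.0724) or control IgG 2 (1.42, adjusted p = 0.0508). The glycine carrier Slc25a38 (0.36) and the branched-chain amino acid carrier Slc25a44 (0.64) were not called. Among the carboxylate carriers, the citrate carrier Slc25a1 was lower, at 512 and 450 against 1367 and 1245 (-1.44, adjusted p = 0.0104, limma). The dicarboxylate carrier Slc25a10 was not well above background on either CPEB2 IgG array, at 13.0 and 9.89 against 39.5 and 46.3, and was at least 2.96-fold lower (adjusted p = 0.00818, limma), though not after normexp background correction (log2 fold change -0.48, adjusted p = 0.0523). The oxoglutarate carrier Slc25a11 (0.02) and the oxodicarboxylate carrier Slc25a21 (-0.41) overlapped between the antibodies and were not called.

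Among the cofactor carriers, 2 were higher. The folate and FAD carrier Slc25a32 was higher, at 1407 and 1355 with CPEB2 IgG against 286 and 297 with control IgG (NM_172402, mm9 chr15:38926713-38926772), with replicates close together (log2 fold change 2.25 ± 0.23 SE, adjusted p = 0.00551, limma). Slc25a51, the NAD carrier, was higher, at 7874 and 10900 against 2333 and 2219 (2.03 ± 0.26 SE, adjusted p = 0.00697, limma), and its second probe gave 0.91. The S-adenosylmethionine carrier Slc25a26 was not called (-0.49), although its second probe gave -1.26. The mean of its probes was called lower (-0.88, adjusted p = 0.0371, limma). The iron carrier Slc25a37, mitoferrin of red cell precursors, was higher, at 2817 and 3609 against 1396 and 1231 (1.28, adjusted p = 0.0195, limma), with 1.19 and an adjusted p of 0.0595 without control IgG 2, and its relative Slc25a28 was not called (-0.30).

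The remaining carriers had smaller changes or less firm calls. The glutathione carrier relative Slc25a40 was higher (1.09) and Slc25a39 was not called (-0.31). The uncoupling protein relative Slc25a30 was higher (0.88), and Slc25a14 (-0.20) and Slc25a27 (-0.13) overlapped between the antibodies. The pyrimidine nucleotide carrier Slc25a33 was lower (-0.92) and Slc25a36 was not called (0.24). The carnitine/acylcarnitine carrier Slc25a20, needed to burn fatty acids, was lower (-1.15). Among carriers with no role given here, Slc25a53 was higher (1.1, and 0.58 with an adjusted p of 0.105 for the mean of its 2 probes), Slc25a47 was lower (-1.34), and Slc25a34 (0.76) and Slc25a45 (-0.84) were not called. Slc25a34 was called higher in 5 of the alternative settings. Slc25a46, an outer membrane relative that shapes mitochondria, was not called (0.16), although a second probe gave 1.47. Of these calls, that of Slc25a47 held with each array left out. Those of Slc25a40 (adjusted p = 0.0399, limma), Slc25a30 (0.0387), Slc25a33 (0.0331), Slc25a20 (0.0451) and Slc25a53 (0.0464) did not. Their adjusted p-values with 1 array left out rose to 0.138, 0.250, 0.115, 0.140 and 0.173. The arrays concerned were both control arrays for Slc25a33, CPEB2 IgG 2 and both control arrays for Slc25a40 and Slc25a53, both CPEB2 IgG arrays and control IgG 1 for Slc25a20, and each of the 4 arrays for Slc25a30.

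**Figure D3:**
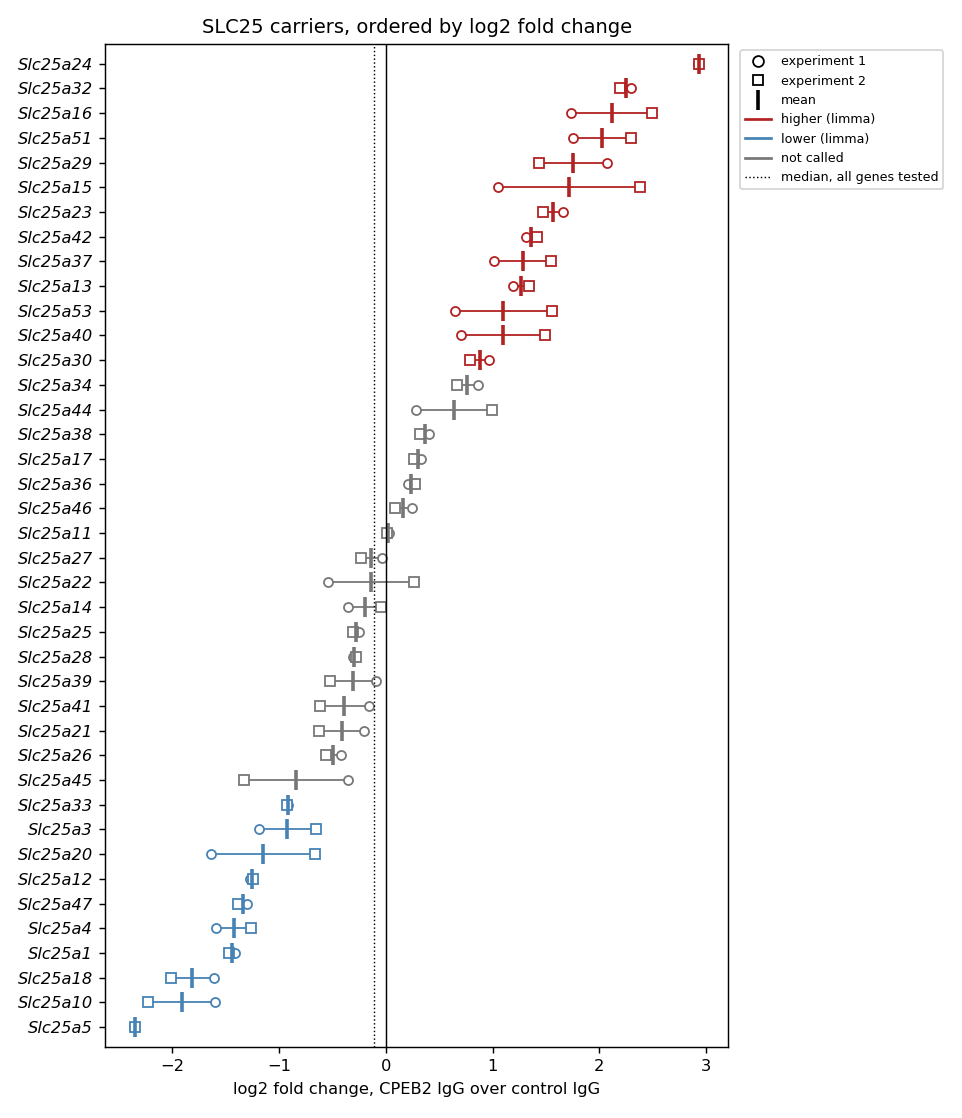
Log2 fold change of CPEB2 IgG over control IgG for the carriers reported by name, in order of their mean, with a circle for experiment 1, a square for experiment 2 and a bar for the mean. Values run from 2.93 for Slc25a24 to -2.35 for Slc25a5, with higher calls in red, lower calls in blue and genes not called in gray.

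A list of 35 other genes of import, processing and transport was set beside these. Of the 34 tested, 4 were higher (11.8%) and 12 were lower (35.3%), against 21.2% and 20.4% of all genes tested. Their median was -0.63, against -0.11 for all genes tested. Samm50, which builds outer membrane barrels such as Tomm40, was lower (-2.19, adjusted p = 0.00695, limma), and so was its partner Mtx2 (-1.87, adjusted p = 0.00704), while another metaxin, Mtx3, was higher (1.33, adjusted p = 0.0148). Pam16 (-1.50, adjusted p = 0.00966) and Dnajc15 (-1.84, adjusted p = 0.00683), both of the import motor that Timm44 tethers, were lower. Of the other motor genes on the list, Grpel1 (-1.54) and Grpel2 (-1.21) were lower as well. Hspa9 (-0.08) was not called, nor was Dnajc19, with -1.45 in experiment 1 and 0.98 in experiment 2. Agk, a subunit of the TIM22 complex, was higher (1.53, adjusted p = 0.0105), on the other side from Timm22.

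Several probes of a gene did not always give the same value. Of the 71 genes, 45 had 1 probe and 26 had several, and in 24 at least 2 probes were above background. In 5 of these 24 the probes had opposite signs. Tomm40 had the widest range. Its probe at base 1561 of the transcript gave 1.34, and its probe at base 725 gave -1.50, with scaled signals of 242 and 293 against 633 and 898. Slc25a44 gave 0.64 at base 3376 and -0.64 at base 989 of another transcript. Timm9 gave -1.41 and 0.17, Timm17a gave -0.38 and 0.004, and both probes of Timm8a1 were near 0 (0.014 and -0.005). In the other genes all probes had the same sign. Tomm70a gave 1.75 and 2.87, and the 5 probes of Timm10b lay between -1.13 and -0.11. The 2 probes of Timm17b, 1 of which the annotation places on chromosome 16 rather than X, gave -0.73 and -0.78.

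**Figure D4:**
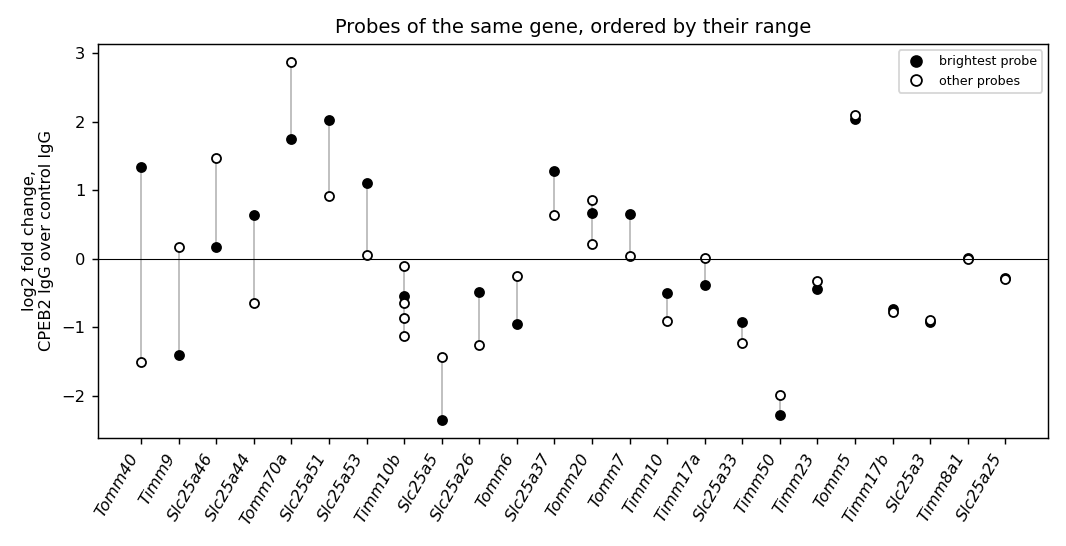
Log2 fold change of each probe above background for the 24 genes with at least 2 such probes, in order of their range, with the brightest probe filled. Tomm40 has the widest range, from -1.50 to 1.34, and Timm8a1 and Slc25a25 are among the narrowest.

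The lists also differed in where their probes sit. The median start of the tested probe was base 472.5 of the transcript for the short import subunits, 836.5 for all import subunits, 1767 for the carriers and 1858 for all genes tested. Genes whose probe lay late in the transcript had higher values over the whole array. Over all genes tested, the median log2 fold change was -0.51 for probes starting before base 500, -0.43 from base 500 to 1000 and 0.13 from base 2000 to 4000. Of the 13 genes described here with a probe starting between bases 500 and 1000, 2 were higher and 7 lower, against 6.86% and 27.8% of all genes in that range. Of the 20 between 2000 and 4000, 10 were higher and 2 lower, against 27.5% and 15.9%. Before base 500 the median was -0.98 for 6 import subunits and -0.31 for 1 carrier. From 500 to 1000 it was -0.62 for 10 import subunits and -1.43 for 3 carriers. From 1000 to 2000 it was 0.01 for 5 and -0.39 for 19. From 2000 to 4000 it was 1.67 for 3 and 0.76 for 17. From base 500 to 4000 the import subunits thus lay above the carriers in each range, opposite to the difference over all of them (-0.46). Across genes, which are not independent replicates and share 4 arrays, the Spearman correlation of probe start and log2 fold change was 0.35 for all 19698 genes, 0.69 for the 41 carriers and 0.29 for the 24 import subunits. The Tomm and Timm probes started at medians of 945 and 681.5.

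Base composition moved with the values as well. The median GC content of the tested probes was 35% for Tomm genes, 45% for Timm genes and 41.7% for all genes tested. The Spearman correlation of GC content with log2 fold change was -0.68 over the 24 import subunits and -0.37 over all genes. After log ratios were centered within bins of probe GC content, the difference between Tomm and Timm medians was 1.57 and that between short import subunits and carriers was -1.05. The part of probe position in these values was not tested.

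**Figure D5:**
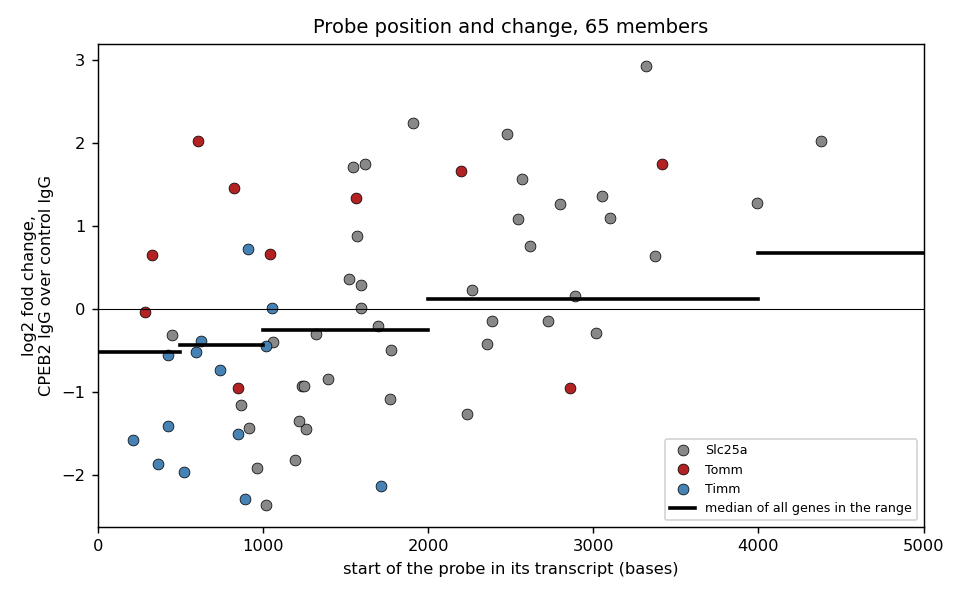
Log2 fold change of CPEB2 IgG over control IgG against the start of the tested probe in its transcript (bases) for the 65 genes tested, with Tomm genes in red, Timm genes in blue and carriers in gray. Black lines give the median of all genes tested in each range of probe start, from -0.51 before base 500 to 0.68 from base 4000 on.

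The probes themselves were searched for the letters of the CPE, TTTTAT or TTTTAAT in DNA letters, neither of which contains the other. Of the 101 probes, 8 held them on the probe's own strand (7.92%), against 1731 of all 33256 annotated probes (5.21%). On either strand the counts were 16 (15.8%) and 4147 (12.5%). The stretches of 30 bases that hold the letters are shown because CPEB proteins bind this motif, and they show which of the measured transcripts carry it in the measured stretch. The CPE letters are in capitals and each stretch is written 5′ to 3′ on the probe's strand.
Tomm5: tgacatttaagcacagtctatatTTTTAAT
Tomm70a: aaaatatattgtatgaaaacaatTTTTAAT
Timm23: tcaggccatactTTTTATtaccatgttaat
Slc25a5: gattctctgagcttgtctgTTTTATcagtg
Slc25a13: tgctttgggccgTTTTATtatagagacaga
Slc25a34: actcctgaacactccaataaagTTTTATat
Slc25a40: cactttatcacgTTTTATgtgtattctatg
Slc25a53: tgtttgttttcTTTTAATagtggatttagt

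The Tomm70a stretch comes from the second probe of this gene (mm9 chr16:57156742-57156801, plus strand), which gave the 2.87 above, and the others come from the tested probes. Those lie at chr14:32993435-32993494 (minus strand) for Timm23, chr6:5991482-5991541 (minus) for Slc25a13, chr4:141174747-141174806 (minus) for Slc25a34, chr5:8454558-8454617 (plus) for Slc25a40 and chrX:133515688-133515747 (minus) for Slc25a53, and those of Tomm5 and Slc25a5 (plus) are given with these genes. Tomm5, Slc25a13, Slc25a40 and Slc25a53 were higher, Slc25a5 was lower, and Timm23 and Slc25a34 were not called. The 7 tested probes with the letters had a median log2 fold change of 1.09 against -0.29 for the tested probes without them. Over all genes tested, 5.75% had the letters in the tested probe, with medians of 0.54 and -0.14. The letters are A and T only, and values fell with GC content over all genes (Spearman correlation -0.37). After GC centring the calls of Slc25a40 (0.62, adjusted p = 0.106, limma) and Slc25a53 (0.63, adjusted p = 0.118) were lost. Those of Tomm5, Slc25a13 and Slc25a5 were kept. The part of base composition in this contrast was not tested. A probe covers 60 bases only, so a message without the letters here may hold them elsewhere, and a match is not a binding site.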

How the data were processed

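RNA recovered by RIP with CPEB2 IgG or control IgG was measured on 4 arrays. Samples were grouped by their titles. For each array the authors deposited the output of Agilent Feature Extraction 10.5.1.1, whose intensity values are background-corrected within the array and not normalized between arrays. Coordinates (mm9) come from the array annotation.

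Control spots, non-uniform spots and population outliers were removed, which took out 66 probes that had no value left on an array. Log2 intensities were scaled to the 75th percentile of the 55615 remaining probes. limma 3.58.1 in R 4.3.3 was fitted as described, and was tested on simulated data. Python 3.11.15 with numpy 2.4.6, pandas 2.3.3 and scipy 1.17.1 did the rest. The methods divide each lysate between the antibodies, which gives the pairing, and deviations within pairs had a correlation of 0.20. The methods name no normalization for these arrays. The number of arrays limits the precision.

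Every gene that the naming rule takes enters the counts and is described by role, except for 1 gene that is not reported here. The genes, lists and roles were chosen with earlier results of these data known, so counts by list are descriptions. No set test was run. Protein lengths were not used here, and the position of the probe in its transcript took their place, a choice made after seeing the data, as was the difference between Tomm and Timm medians. The alternatives were other scalings, normexp background correction (offset 50), marked spots kept, centring by probe GC content, means or medians of probes, no block, an intensity trend, other filters and thresholds, and arrays or experiments left out.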

Additional observations from a re-analysis of the deposited data

How the results depend on the processing

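Of the 38 called genes, 18 kept their direction and call under all 14 alternatives that kept every array. A further 3 (Slc25a13, Slc25a47 and Timm50) kept them wherever they were tested, which leaves out the filter on a raw signal above 1000. Tomm40 alone of the 38 changed sign, to -0.082 with the mean or the median of its probes. Without the replicate block, which drops the pairing by experiment, import subunits were 5 higher and 8 lower, short ones 1 and 4, carriers 11 and 10, Timm genes 0 and 6 and Tomm genes 5 and 2, and the calls of Slc25a3, Slc25a40, Slc25a53 and Timm8a2 were lost. With no filter on dim probes, 24164 genes were tested and 14 of the 38 calls were lost, leaving 7 higher and 7 lower carriers and 3 lower short import subunits. The call of Slc25a20 was also lost after quantile normalization, normexp correction and GC centring.

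Import subunits called higher numbered 8 after median centring, normexp correction or an intensity trend. Short import subunits called higher numbered 2 in these settings, after quantile normalization and with a raw signal above 1000, and those called lower 3 with the mean of the probes. In 5 settings (quantile normalization, median centring, normexp correction, an intensity trend and probes above background on all 4 arrays) 1 Timm gene, Timm21, was higher. Counting arrays left out, lower calls were gained by Timm17b in 8 settings (log2 fold changes from -0.90 to -0.70), Timm10b in 4, Timm10 in 2 and Timm23 in 1, and higher calls by Tomm20 in 6 and Tomm7 in 5. Among carriers, with all arrays kept, higher calls were gained by Slc25a34 in 5 settings and Slc25a46 in 2. Lower calls were gained there by Slc25a26 in 2 settings and Slc25a21 in 1. Tomm genes called lower numbered 0 after median centring and with no filter, and 1 after quantile normalization, GC centring, means or medians of probes, and with a raw signal above 1000. With 1 array left out and no block, in which a lone array is assumed to vary like the other antibody's, carriers called higher ranged from 7 to 13 and lower from 7 to 10, short import subunits called lower from 3 to 5, Timm genes called higher from 0 to 1 and Tomm genes called lower from 0 to 2. The lowest counts came without control IgG 2 for carriers called higher, without either control array for carriers and Tomm genes called lower, and without control IgG 1 for short import subunits, and the Timm gene appeared without CPEB2 IgG 1. Past the fold and signal thresholds were 4 import subunits with the mean of the probes and 5 carriers with a raw signal above 2000.

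The difference between short import subunits and carriers was -0.64 after quantile normalization, -0.65 with normexp, -1.05 with GC centring, -0.62 and -0.66 with the mean and median of probes, -0.89 with no filter and -0.59 with probes above background on all 4 arrays. It was -1.39 for the small TIMs alone, -0.46 for all Timm and Tomm genes and -0.51 for those with a probe before base 700, a choice made after seeing the data. The carriers were not limited by probe start in this last value. The difference between Tomm and Timm medians was 1.66 with normexp, 1.57 with GC centring, 1.22 and 1.57 with the mean and median of probes and 1.75 with probes above background on all 4 arrays. The causes were not tested. The alternative by protein length was not run.

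Of the genes not called, 12 changed sign, with values after the change from -0.12 to 0.40. After median centring these were Slc25a14 (0.030), Slc25a22 (0.087), Slc25a27 (0.092) and Tomm20l (0.20), after quantile normalization Timm8a1 (-0.12) and Tomm20l (0.17), and with normexp Slc25a41 (0.0028) and Tomm20l (0.025). With no scaling they were Slc25a11 (-0.036) and Timm8a1 (-0.039), and with the percentile over probes above background on all 4 arrays the same genes (-0.090 and -0.094). GC centring gave 0.035 for Slc25a25, 0.039 for Slc25a27, 0.21 for Slc25a28, -0.11 for Slc25a38 and 0.23 for Slc25a39, and the mean or median of probes gave -0.0014 for Slc25a44. Slc25a22 was 0.40 and Timm8a1 -0.12 without CPEB2 IgG 1, Slc25a11 -0.00055 and Tomm20l 0.025 without CPEB2 IgG 2, Slc25a11 -0.010 without control IgG 1, and Slc25a22 0.00072, Slc25a27 0.064 and Timm8a1 -0.045 without control IgG 2.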
